A study of Rattus norvegicus with 6 samples.

Results

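The genes described here are beta-catenin and its partners in rat cortical cells: Ctnnb1, the alpha-catenins Ctnna1 and Ctnna2, the p120 family members Ctnnd1 and Ctnnd2, plakoglobin (Jup), and Apc, Axin2 and Gsk3b of the beta-catenin destruction complex. Ctnnb1 was chosen by its higher signal on the Math2 arrays, and the other 8 genes were joined to it by name. The 9 genes have 14 probe sets among the 31042 on the array that are not controls, and a probe set was taken where its annotated symbol was a member's. Because the contrast between Math2 and control chose Ctnnb1, the members' differences are given as descriptions with standard errors and without a test.

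Primary cells of the rat cerebral cortex received either an expression vector for Math2 (Neurod6), a basic helix-loop-helix (bHLH) factor of neurons, or the control vector. Both groups also received a vector for LNGFR, the low-affinity nerve growth factor receptor without its cytoplasmic part. Cells carrying this surface tag were selected 24 h later, so the RNA comes from transfected cells of whatever type had taken up DNA. There were 3 arrays per group, and the age of the animals is not given in the sources used here. The titles do not say whether the 3 samples of a group were separate cultures, so a p-value here speaks only to how these 6 samples vary, and that variation may be technical.

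Beta-catenin works in 2 places. At adherens junctions it ties the tail of a cadherin to alpha-catenin and so to actin, while p120-type catenins bind the same tail nearer the membrane and keep the cadherin at the surface. In the cytoplasm, free beta-catenin is bound by APC and axin, phosphorylated by casein kinase and GSK3B and degraded, and Wnt signals block that step so that it enters the nucleus and acts with TCF/LEF factors. In the developing cortex the pathway is known for its part in progenitor growth, neurite shape and synapse formation. Most of this control acts on the protein, which these arrays do not measure.

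Array-wide measures bear on the bright members. The deposited signals had a median of 102 to 120 per array, and the array medians did not separate the groups (exact permutation p = 1, two-sided, n = 3 and 3). Hybridization spike-ins, bacterial and phage transcripts added in a fixed amount, were 2.07-fold higher on the Math2 arrays (geometric mean signal over 18 probe sets). In the control group, arrays 1, 2 and 3 read 2476, 1893 and 2566, against 6773, 4044 and 3875 in the Math2 group. No control array reached the lowest Math2 value (exact two-sided permutation p = 0.1, the least that 3 against 3 arrays allow). Among the 1% of tested probe sets with the highest mean signal, 187 in all, 186 were higher on the Math2 arrays, with a median log2 difference of 0.43, against -0.031 over all 18625 tested probe sets. Quantile normalization, which gives every array the same distribution of values, brought the median of those 187 to -0.0046.

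The selected cells carried markers of several types. Summed signals of 9 pan-neuronal markers were 11639, 6727 and 17359 for control arrays 1, 2 and 3 and 8961, 7204 and 24405 for their Math2 counterparts, so both arrays numbered 3 were high in neuronal signal. The 8 astrocyte markers on the array summed to 26535 to 34974 in the control and 23917 to 38782 in the Math2 arrays. The fibroblast and meningeal markers summed to 9195 to 12440 and 8965 to 9414, and 7 of 9 were lower with Math2. All 9 microglial and macrophage markers lay below the array median on every array. Of 7 excitatory neuron markers 2, Slc17a7 and Tbr1, lay below it on every array, and of 7 inhibitory ones 1, Gad2. Among excitatory markers Bcl11b was the brightest, at 677 to 5131. Slc17a6 read 127.6 to 629.3, Neurod2 43.96 to 257, Fezf2 25.33 to 140.3 and Nrgn 68.23 to 240.9. Of the inhibitory markers, Gad1 read 514 to 2397, Dlx1 601.6 to 2106.5, Npy 925.8 to 1664 and Dlx5 189.8 to 482.4. Sst read 142.7 to 234.4 and Slc32a1 45.6 to 146.2. The Neurod6 probe set read 386, 207 and 973 in the control arrays and 312, 167 and 1546 in the Math2 arrays, and since the transfected sequence is not given, it checks nothing about the labels.

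Ctnnb1 was read by 4 probe sets, and they did not move together. For 1373067_at, arrays 1, 2 and 3 of the control group read 7436, 7569 and 6352, against 26647, 14284 and 10341 in the Math2 group. All Math2 signals exceeded all control signals, and Math2 array 1 stood far above the rest. The group means were 7119 ± 668 and 17091 ± 8508 (SD, n = 3), which differ by 1.15 (SE 0.30) in log2(signal + 7.42), the scale of all log2 differences here, or 2.22-fold. By replicate number the log2 difference was 1.84, 0.92 and 0.70, and without Math2 array 1 the group difference was 0.78.

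The second bright Ctnnb1 probe set, 1373470_at, showed the same direction with a smaller difference. It read 15788, 13518 and 13603 in the control arrays and 29224, 22006 and 18979 in the Math2 arrays, and again the groups did not overlap. The means were 14303 ± 1287 and 23403 ± 5263 (SD, n = 3), with a log2 difference of 0.69 (SE 0.19). The 3 numbered pairs gave 0.89, 0.70 and 0.48. On both bright probe sets Math2 array 1 was the highest and Math2 array 3 the lowest of its group.

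The remaining Ctnnb1 probe sets did not share that direction. Probe set 1369733_at, the one annotated to the RefSeq mRNA NM_053357, read 89.0, 370 and 196 in the control arrays and 6.03, 262 and 88.0 in the Math2 arrays. It was lower with Math2 in each of the 3 numbered pairs (log2 differences -2.84, -0.49 and -1.09), although the groups overlapped. Its signals on control array 1 and on Math2 arrays 1 and 3 lay below the array median. Its difference was -1.47 (SE 0.91), and it was -0.28 without Math2 array 1, where the signal was at its lowest. With 1 or 32 added to the signals before taking logs, the difference was -1.772 or -1.015. The size of this difference is therefore not reliable. Probe set 1375284_at was dim: it read 22.2, 23.0 and 22.5 in the control arrays and 45.0, 4.08 and 4.46 in the Math2 arrays, below the array median throughout. It was under the filter on dim signals, so no size is read from it.

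**Figure D1:**
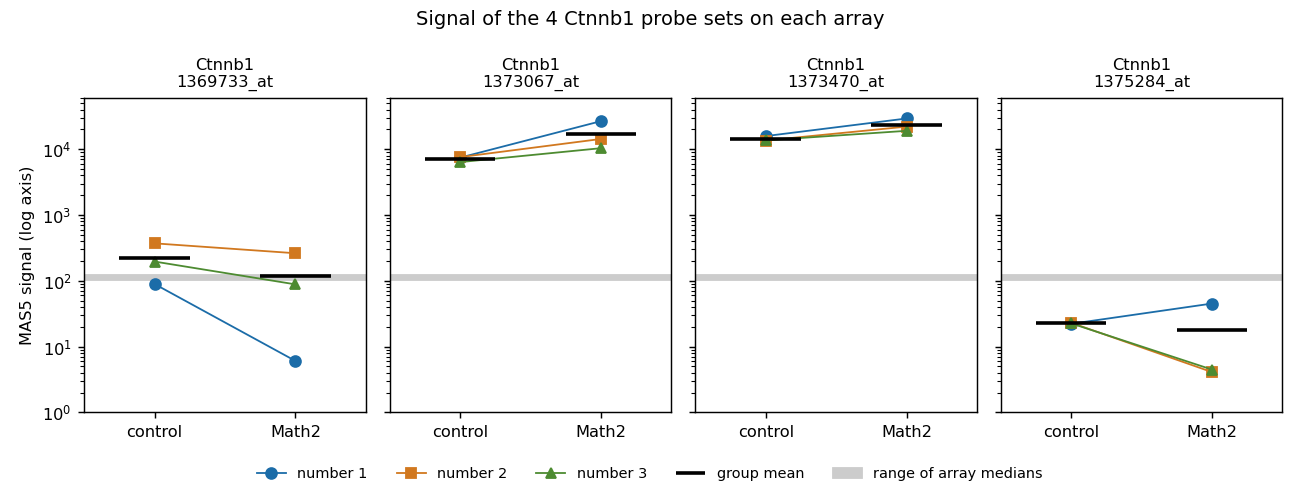
MAS5 signal of the 4 Ctnnb1 probe sets (log axis) on each control and Math2 array, with a line joining arrays of the same replicate number, a bar for the group mean and a grey band for the range of array medians. The probe sets 1373067_at and 1373470_at are higher on every Math2 array, 1369733_at is lower in all 3 numbered pairs, and 1375284_at stays below the band.

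The probe sets of a gene read different stretches of its transcripts, and the array files do not give their positions. Array measures of transcript completeness are therefore set beside 1369733_at. The ratio of the Gapdh 3' to the Gapdh 5' probe set, which grows as labelled transcripts get shorter, was 13.8, 3.74 and 5.04 for control arrays 1, 2 and 3 and 8.48, 6.0 and 8.14 for the Math2 arrays in the same order. The 3 arrays with the highest signals of 1369733_at, control arrays 2 and 3 and Math2 array 2, had the 3 lowest Gapdh ratios. The Actb ratio, taken the same way, was 22.7, 11 and 13.47 for the control arrays and 14.34, 17.15 and 18.43 for the Math2 arrays. Its 3 lowest values were on control arrays 2 and 3 and on Math2 array 1, the array with the lowest signal of 1369733_at. Neither ratio separated the groups (exact permutation p = 0.9 for Gapdh and 0.7 for Actb). The part of transcript completeness in the low Math2 values of this probe set was not tested.

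How far the bright Ctnnb1 probe sets differed depended on the scaling between arrays. With quantile normalization the log2 difference of 1373067_at was 0.84 (SE 0.21), with pairs at 1.26, 0.68 and 0.59 and still no overlap between the groups. That of 1373470_at was 0.20 (SE 0.12), with pairs at 0.066, 0.17 and 0.35, and its groups overlapped. Probe set 1369733_at hardly changed, at -1.46. Only 38 of 18625 tested probe sets had a higher mean log2 signal than 1373470_at, and 204 had a higher one than 1373067_at. Of the 187 brightest probe sets, 6 had a larger difference than 1373470_at on the deposited scale and 14 after quantile normalization. Since Ctnnb1 was chosen for its rise in this contrast, nothing is read from these ranks.

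The spike-ins moved with these signals across the Math2 arrays. Their log2 difference was 1.05, against 1.15 and 0.69 for the bright Ctnnb1 probe sets. Math2 array 1 was highest in the spike-ins and in both probe sets. In the control group 1373067_at did not follow the spike-ins: array 2 had the lowest spike-ins and the highest signal of this probe set. Probe set 1373470_at was lowest on control array 2, as the spike-ins were. Its highest control signal was on array 1, and that of the spike-ins on array 3. The part of the spike-in level in the Ctnnb1 difference was not tested.

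**Figure D2:**
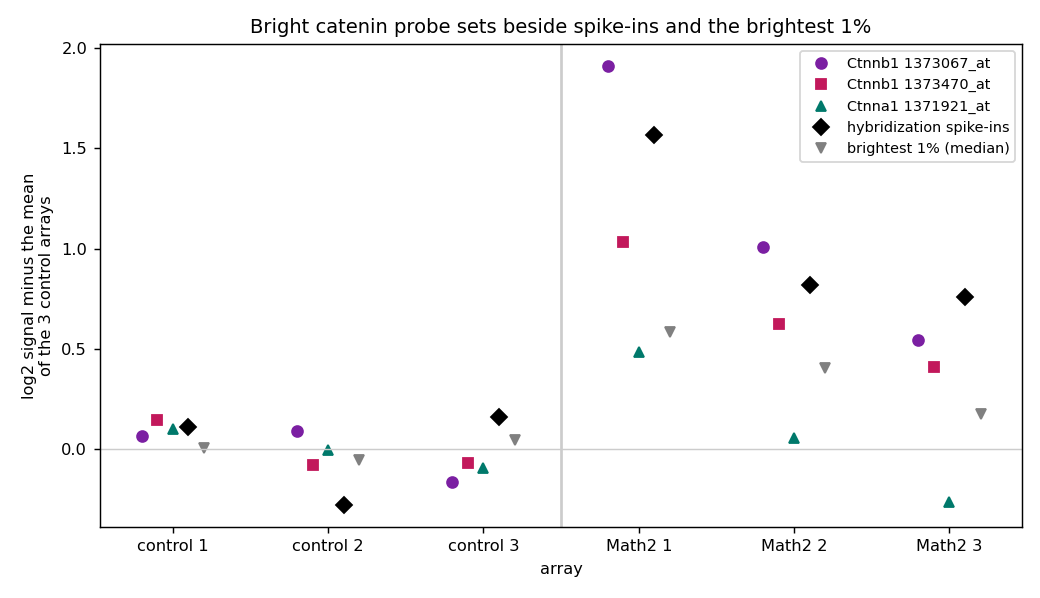
Log2 signal of the bright Ctnnb1 and Ctnna1 probe sets on each array, beside the hybridization spike-ins and the median of the brightest 1% of probe sets, each as the distance from its own mean over the 3 control arrays. On Math2 array 1 all 5 measures are at their highest, and Ctnna1 alone falls below its control mean on Math2 array 3.

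The RefSeq promoter window of Ctnnb1 is shown because the transfected factor belongs to the bHLH family, whose members bind E-boxes, CANNTG. The windows run from 250 bases before to 50 after an annotated start, on assembly GRCr8. For Ctnnb1 the window is chr8:129533887-129534186 on the plus strand. Its start lies 16561 bases inside the gene, which spans chr8:129517576-129544661, so it is not the most upstream start. Whether this window acts as a promoter was not tested. Capitals mark the single E-box, which begins at position -22 from that start.

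Ctnnb1: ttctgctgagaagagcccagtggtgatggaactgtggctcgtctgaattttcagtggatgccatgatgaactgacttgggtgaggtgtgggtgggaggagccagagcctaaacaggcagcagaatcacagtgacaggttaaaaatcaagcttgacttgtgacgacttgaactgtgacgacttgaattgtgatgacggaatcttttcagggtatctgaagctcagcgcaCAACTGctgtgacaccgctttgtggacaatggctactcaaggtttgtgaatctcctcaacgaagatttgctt

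An E-box was found in 72.1% of all 33469 windows of the same length. Of the 8 members with a window, 5 held at least 1. The narrower form CAGATG, searched on both strands and itself an E-box, was in 16.6% of all windows and in 0 of the 8 here. A match is a string of letters and was not measured as a binding site in this study.

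The alpha-catenins, which link beta-catenin to actin, did not follow the bright Ctnnb1 probe sets. Ctnna1, the widely expressed form, read 11195, 10413 and 9785 in the control arrays and 14623, 10869 and 8716 in the Math2 arrays. The groups overlapped, with Math2 holding both the highest and the lowest array. The means were 10464 ± 706 and 11403 ± 2990 (SD, n = 3). The log2 difference was 0.093 (SE 0.21), which turned to -0.24 (SE 0.15) with quantile normalization, when all 3 pairs were lower. With 196 tested probe sets above it in mean log2 signal, it lay in the same stretch of the signal scale as 1373067_at.

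Ctnna2, the alpha-catenin of neurons, read 626, 786 and 1365 in the control arrays and 549, 524 and 1151 in the Math2 arrays. It was lower with Math2 in 3 of 3 pairs, by a log2 difference of -0.34 (SE 0.38), and the groups overlapped. Both arrays numbered 3 were far above the other 4, the same arrays on which the pan-neuronal markers were highest. In bulk RNA, fewer cells of a type and less RNA per cell cannot be told apart. Without control array 3 the difference was -0.019.

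The p120 family members, which hold cadherins at the cell surface, differed little. Ctnnd1, p120-catenin itself, read 459, 504 and 678 in the control arrays and 451, 535 and 686 in the Math2 arrays. The arrays of the same number nearly coincided, and the log2 difference was 0.026 (SE 0.29). Ctnnd2, the delta-catenin of neurons and their synapses, read 4792, 3699 and 3974 against 4152, 2758 and 4351, a difference of -0.17 (SE 0.23) with overlapping groups. It was lower in 2 of 3 pairs.

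Jup, plakoglobin, the close relative of beta-catenin in desmosomes and adherens junctions, varied widely between arrays. It read 197, 24.3 and 279 in the control arrays and 75.6, 77.4 and 219 in the Math2 arrays, and 3 of those 6 values lay below the array median. The log2 difference was -0.072 (SE 0.75), and it ran from -1.05 to 0.54 when 1 array was left out. Control array 2 alone moved it to -1.05.

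In the destruction complex, Apc and Gsk3b were measured and Axin2 was dim. Apc, the scaffold that holds beta-catenin for phosphorylation, read 2790, 2069 and 2791 in the control arrays and 1862, 1817 and 3266 in the Math2 arrays by its bright probe set, 1376629_at. The groups overlapped, and the difference was -0.18 (SE 0.27), lower in 2 of 3 pairs. Its other probe sets, 1379840_at and 1387837_at, read 2.71 to 39.5 and 4.92 to 30.7 over the 6 arrays, below every array median.

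Gsk3b, the kinase that marks beta-catenin for degradation, read 321, 414 and 323 in the control arrays and 401, 537 and 337 in the Math2 arrays. It was higher with Math2 in 3 of 3 pairs, but the groups overlapped. The log2 difference was 0.25 (SE 0.29), and 0.32 (SE 0.29) with quantile normalization, and it ran from 0.068 to 0.40 when 1 array was left out.

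Axin2, a scaffold of the complex that is itself switched on by beta-catenin and is widely used as a reporter of that signal, read 25.9, 58.4 and 61.3 in the control arrays. On Math2 arrays 1, 2 and 3 it read 2.37, 88.2 and 45.5. All 6 values lay below their array median and under the filter. The Math2 values spanned the control values on both sides, and no direction can be read at this signal. Because Axin2 is the textbook target, its RefSeq window is shown with matches to the TCF/LEF core, CTTTGA or its reverse complement TCAAAG, in capitals. The window is chr10:94398535-94398834 on the plus strand of GRCr8, and its start lies 5406 bases inside the gene. Whether it acts as a promoter was not tested either.

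Axin2: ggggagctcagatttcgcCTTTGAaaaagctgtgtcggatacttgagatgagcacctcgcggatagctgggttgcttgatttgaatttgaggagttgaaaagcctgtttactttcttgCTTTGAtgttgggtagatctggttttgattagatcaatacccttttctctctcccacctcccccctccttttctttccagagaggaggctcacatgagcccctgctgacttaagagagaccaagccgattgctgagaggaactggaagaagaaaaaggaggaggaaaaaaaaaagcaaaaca

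The 2 matches begin at positions -232 and -132 from that start. The core was in 16.1% of all windows of this length, and Axin2 was the only 1 of the 8 member windows to hold it. No E-box match overlapped a TCF/LEF match in these windows.

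**Figure D3:**
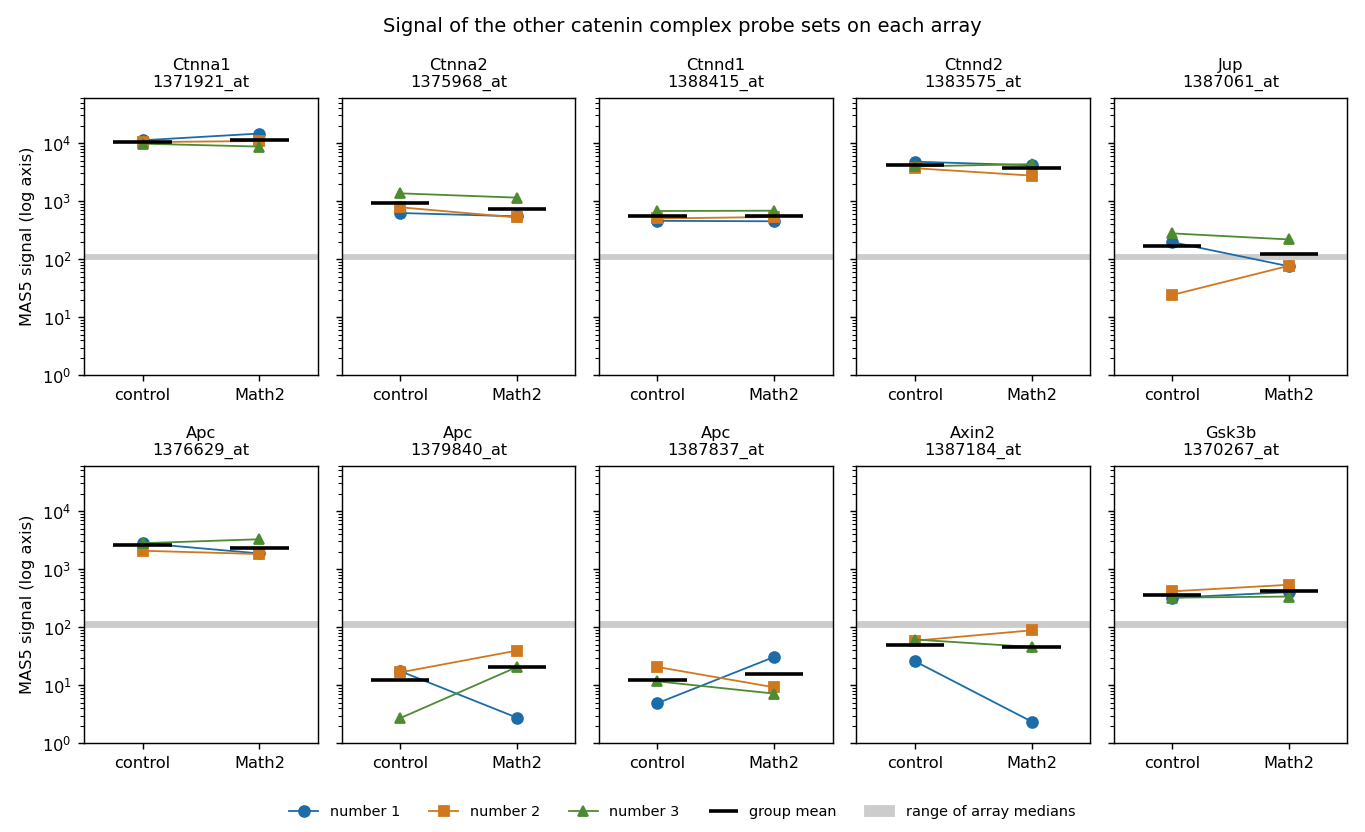
MAS5 signal (log axis) of the 10 probe sets of the other 8 genes on each array, drawn as for Ctnnb1, with lines joining arrays of the same replicate number. Control and Math2 signals overlap in every panel, the arrays numbered 3 are highest for Ctnna2, Ctnnd1 and Jup, and Axin2 and 2 Apc probe sets stay below the band of array medians.

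Counted over the gene group, 7 of 14 probe sets were higher and 7 lower with Math2, and with quantile normalization 6 were higher and 8 lower. The median log2 difference of the 14 was -0.023, or -0.13 with quantile normalization, against -0.031 and -0.015 over all tested probe sets. Above the filter were 10 probe sets of 8 genes, all but Axin2. Of these, 0 were called by limma at an adjusted p under 0.05, where the background was 0% of tested probe sets (594 of 18625 lay under an unadjusted 0.05). With the replicate number as a block 0 were called too, where the background was 0.0161%, or 3 probe sets.

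The groups did not overlap for 2 of the 10, both of Ctnnb1 and both higher. Over all tested probe sets that share was 3.7% on the higher and 4.3% on the lower side. After quantile normalization 1 of the 10 remained apart, 1373067_at, against 3.06% and 3.89%. Since Ctnnb1 was chosen for this difference, nothing is read from these counts.

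**Figure D4:**
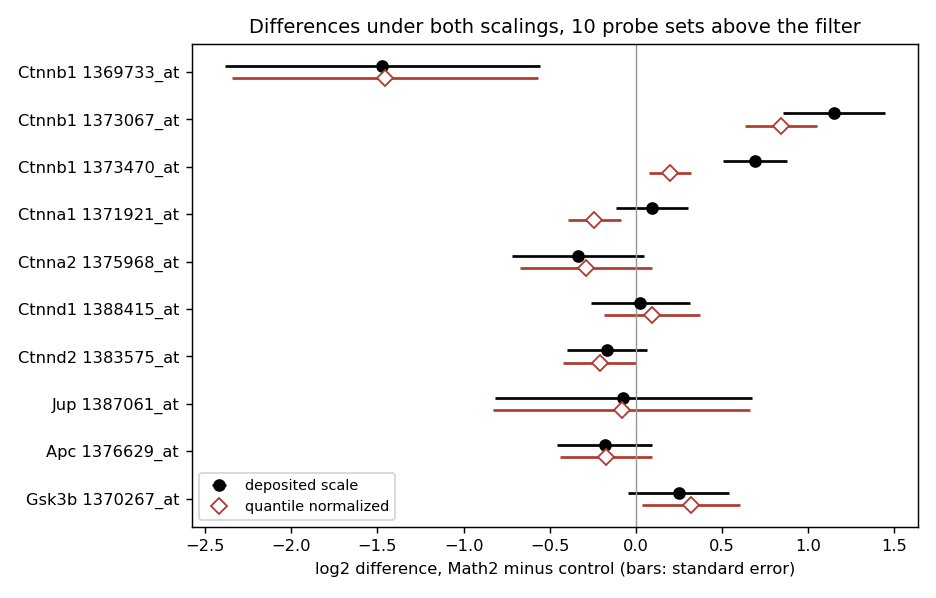
Log2 difference (Math2 minus control, bars are standard errors from the limma fit) of the 10 probe sets above the filter, on the deposited scale (filled circles) and with quantile normalization (open diamonds). The shift between scalings is visible for the 3 bright probe sets of Ctnnb1 and Ctnna1, and Ctnna1 crosses 0.

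Several members varied with the number of the array in both groups. Ctnna2, Ctnnd1, Jup and the Apc probe set 1376629_at had their highest control and their highest Math2 signal on the arrays numbered 3. Gsk3b and the Ctnnb1 probe set 1369733_at were highest on those numbered 2 in both groups, and Ctnna1 and 1373470_at on those numbered 1. The number of the highest array differed between the groups for 1373067_at, 1375284_at, Ctnnd2, Axin2 and the Apc probe sets 1379840_at and 1387837_at. No background over all tested probe sets stands beside this listing, so nothing is read from it.

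The probe sets most like each Ctnnb1 probe set were ranked by Pearson correlation of quantile-normalized log2 values over the 6 arrays, among 13752 candidates. These are descriptions over the same 6 libraries. With so few arrays and so many candidates, high correlations can arise by chance, so nothing is read from the names. For 1373067_at the top 5 were Lyrm9 (r = 0.995), Sdhaf3 (0.986), Vkorc1l1 (0.985), C5h1orf122 (0.982) and Zfp574 (0.982). For 1373470_at they were Tceal9 (0.99), Rwdd3 (0.987), Rev1 (0.987), Jmjd8 (0.986) and Nufip1 (0.98), so the 2 lists share no gene. The 2 bright Ctnnb1 probe sets correlated with each other at 0.701 and with 1369733_at at -0.692 and -0.673. Nearest to 1369733_at were Rpusd4, Saysd1, Ctbp1, Abcg4 and Cdk5rap3 (0.991 to 0.984), and nearest to the dim 1375284_at were Icmt, Pigo, Tango2, Accs and Eef2 (0.99 to 0.978).

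The rest of the pathway was covered by 8 lists of 183 gene symbols, with each gene represented by its probe set of highest mean signal. Of 146 on the array, 115 were above the filter. Over all 115, limma called 0 higher and 0 lower (smallest adjusted p = 1.00, with 4 under an unadjusted 0.05), and with the replicate block it called 0 (smallest adjusted p = 0.155). Their median log2 difference was -0.10, with 44 higher and 71 lower, against -0.031 over all tested probe sets, where 45.7% were above 0. All 8 list medians had the same sign with quantile normalization. The groups did not overlap for 6 genes that were higher and 5 that were lower, of 115, beside the 3.7% and 4.3% of all tested probe sets. The values that follow describe genes that did not pass.

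Of the 21 listed Wnt ligands and genes that make them ready for secretion, 15 were on the array. Above the filter were 7 of these, with 3 higher and 4 lower (median -0.11). Wnt9a read 132 ± 36.8 and 81.8 ± 67.4 (SD, n = 3; log2 difference -1.0), and Wnt5a, known mainly for signals that bypass beta-catenin, 98.8 ± 30.1 and 142 ± 38.7 (0.50). Porcn, the enzyme that adds the lipid Wnts need, differed by -0.46. Each of these groups overlapped.

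Of the receptors and Dishevelled genes, 10 were above the filter, 5 higher and 5 lower (median 0.0011). Fzd8, a Frizzled receptor, read 846, 643 and 875 in the control arrays and 1177, 1024 and 1488 in the Math2 arrays, with no overlap (log2 difference 0.63, SE 0.26). The co-receptor gene Lrp6 went the other way at 133 ± 47.8 and 63.3 ± 35.4 (SD, n = 3; -1.09, SE 0.51), close to or below the array medians. Dvl1, which relays the receptor signal, differed by -0.48.

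Among inhibitors that act outside the cell or at its membrane, 3 of 8 were higher and 5 lower (median -0.084). Dkk3, a secreted protein of the Dickkopf family, read 787, 684 and 700 in the control arrays and 1202, 935 and 874 in the Math2 arrays, without overlap (0.46, SE 0.25). Frzb, a secreted Wnt-binding protein, was also apart, at 49.6 ± 6.87 and 104 ± 38.9 (SD, n = 3; 0.91), from control levels below the array medians. Znrf3, a ligase that removes Frizzled receptors, differed by -0.28.

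The other genes of the destruction complex and of turnover were 5 higher and 15 lower of 20, with a median of -0.17, and 3 higher and 17 lower with quantile normalization. The casein kinase genes Csnk1e and Csnk1d differed by -0.58 and -0.28. Axin1, the scaffold that is always present, read 733 ± 139 and 599 ± 148 (SD, n = 3; -0.30). Nkd1, a feedback inhibitor, differed by 0.91 from a dim control level of 50.4 ± 29.1, with overlapping groups.

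TCF/LEF factors and their nuclear partners were 6 higher and 14 lower of 20 (median -0.15). Tcf7l1, mostly a repressor among TCF factors, read 432, 335 and 288 in the control arrays and 212, 287 and 177 in the Math2 arrays (-0.63, SE 0.31). The groups were only just apart on the deposited scale, with 287.4 on Math2 array 2 and 287.8 on control array 3. They overlapped with quantile normalization. Pygo2, which joins beta-catenin to chromatin, read 660, 664 and 661 against 349, 643 and 517, also without overlap (-0.43). Hmgxb4, an HMG-box protein, differed by -0.49.

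Genes that beta-catenin is known to switch on were 9 higher and 11 lower of 20 (median -0.026), close to the median of all tested probe sets. Id2, an inhibitor of bHLH factors, read 6019, 8037 and 7532 in the control arrays and 20379, 12496 and 13168 in the Math2 arrays, without overlap (1.07, or 0.81 with quantile normalization). Like Ctnnb1, it is bright and highest on Math2 array 1. Mycn, a growth-promoting transcription factor of progenitors, differed by 0.46 and did not overlap, and Nrcam, a cell adhesion molecule, by -0.49.

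At the junction itself, classical cadherins were 6 higher and 3 lower of 9 (median 0.12). Cdh2, N-cadherin, the main cadherin of neural cells, read 3706, 3695 and 3436 in the control arrays and 4561, 3713 and 3818 in the Math2 arrays, just without overlap (0.15, SE 0.19). Cdh22 and Cdh20 differed by 0.67 and 0.23 with overlapping groups. The other junction proteins were 9 higher and 16 lower of 25 (median -0.20). The receptor phosphatase gene Ptprf read 1360, 1433 and 1240 against 647, 1236 and 818 (-0.62, SE 0.28), and Afdn, afadin, which ties nectins to actin, 1796 ± 285 and 1335 ± 161 (SD, n = 3; -0.42), both without overlap, though those of Ptprf overlapped with quantile normalization. Scrib, a polarity scaffold, differed by -0.38.

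**Figure D5:**
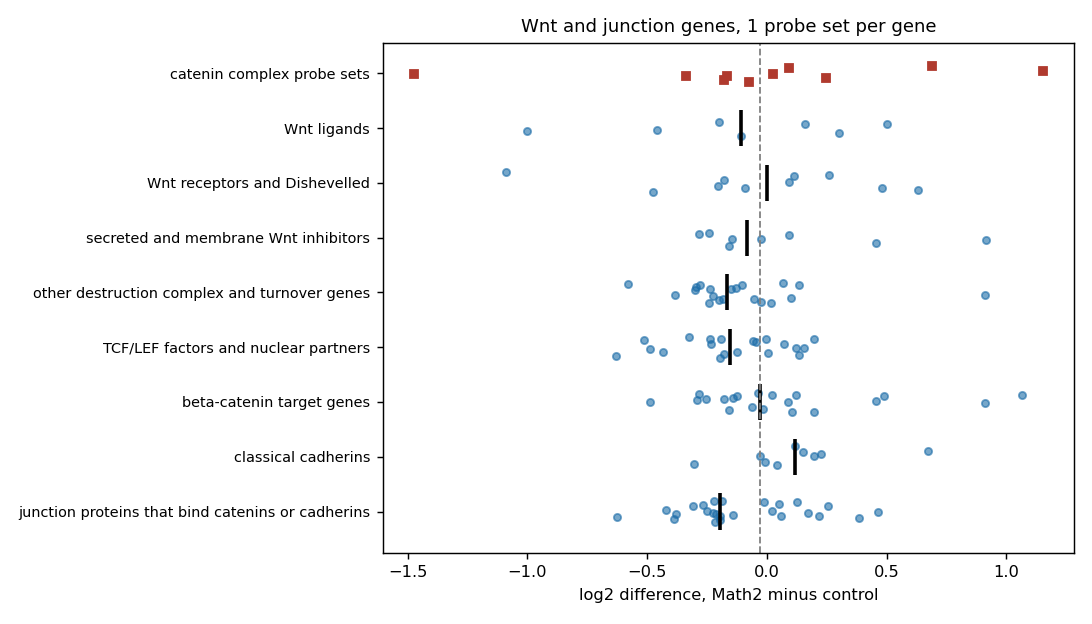
Log2 difference (Math2 minus control) of each tested gene of the 8 Wnt and junction lists (circles, 1 probe set per gene, black bars are list medians), with the 10 tested catenin complex probe sets in the top line (squares); the dashed line is the median of all tested probe sets, -0.031. List medians run from -0.20 to 0.12, and the bright Ctnnb1 probe sets at 0.69 and 1.15 lie to the right while the third lies at -1.47.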

How the data were processed

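Per the submitters' processing notes, the authors made the deposited intensity values with MAS5, which yields 1 signal per probe set on a linear scale; version and settings: not given in the sources used here. Affymetrix Rat Genome 230 2.0 arrays were hybridized after 2 labelling cycles, per the labels' protocols. The mean of each array, without its outer 2% at either end, was 500, so no scaling was added. There are no detection calls, and the 6 arrays limit the precision.

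Signals were taken as log2(signal + 7.42), the pseudocount being the 10th percentile. Of 31099 probe sets, 57 controls were left out, and those at or above the 40th percentile of mean log2 value (6.07), 18625 in all, were fitted with limma 3.58.1 in R 4.3.3 (eBayes with trend, Benjamini-Hochberg adjustment, threshold 0.05, two-sided). Symbols came from the platform annotation, and promoter windows from RefSeq (GRCr8), which matched 8 of 9 members. The fit was tested on simulated data with 200 changed probe sets among 18625. It recovered 25% of the 2-fold and 80% of the 4-fold changes, with 9 false calls. A count of 0 calls therefore does not show that no probe set changed.

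The rule for names took all member probe sets, up to 3 genes per pathway list with the smallest p, the 5 probe sets most like each Ctnnb1 probe set, and Neurod6; Axin1 was added after its values were seen. Members and lists were chosen with earlier results of these data known. Deviations from group means correlated at 0.326, 0.476 and 0.372 for arrays of like number, each above the limit of 0.1. The unlike pair of control array 1 and Math2 array 3 also passed that limit, at 0.104, and the remaining unlike pairs ran from -0.46 to -0.04. The numbers were taken to pair the samples, on the data alone. Alternatives were scaling, pseudocount, filter, replicate block, variance trend and leaving out each array.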

Additional observations from a re-analysis of the deposited data

How the results depend on the processing

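Across 15 other settings of processing the bright Ctnnb1 probe sets kept their direction, with log2 differences of 0.78 to 1.46 for 1373067_at and 0.20 to 0.83 for 1373470_at. The latter fell to 0.20 with quantile normalization, with or without the replicate block. With quantile normalization and 1 array left out, an alternative added after seeing the data, 1373470_at was 0.29, 0.17 and 0.13 without control arrays 1, 2 and 3 and 0.17, 0.23 and 0.19 without Math2 arrays 1, 2 and 3, and 1373067_at was 0.61 without Math2 array 1. Probe set 1369733_at stayed negative, from -2.44 to -0.28. The standard errors given with the members come from fits without the replicate block. With the block on the deposited scale they were 0.20 for 1373067_at, 0.15 for 1373470_at and 0.43 for 1369733_at.

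The replicate block called 3 probe sets in place of 0, and 5 with quantile normalization, none of them a member or a pathway gene. None of the other 13 settings called any, with 358 to 1261 under an unadjusted 0.05 in those settings. Of the members, Ctnna1 turned sign in 3 settings, Ctnnd1 in 3, Jup in 4, Ctnnd2 in 1, Axin2 in 1 and 2 of the 3 Apc probe sets in 2 each, and of the 14 probe sets 6 to 8 were above 0 when 1 array was left out. With 1 array left out, the log2 difference of the spike-ins ran from 0.79 to 1.19 and that of the brightest 1% from 0.30 to 0.50. Signals under the array medians give no reliable size.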
